A study of Mus musculus with 28 samples.

Results

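Chondrocyte-like cells made up 80 of the 4430 cells with at least 200 detected genes in a pair of 16-week scRNA-seq libraries of sorted mouse bone and marrow cells, 1 library of control and 1 of mutant mice. A cell was counted as chondrocyte-like when 7 cartilage genes, *Col2a1*, *Col9a1*, *Col9a2*, *Col11a2*, *Cnmd*, *Matn3* and *Hapln1*, together gave at least 1% of its unique molecular identifiers (UMIs, 1 for each captured transcript). The control library came from PrxCre; Z24fl/+ mice and the conditional knockout (CKO) library from PrxCre; Z24fl/fl mice, both aged 16 weeks and both carrying the Ai9 reporter. Z24 is *Zmpste24*, the protease that matures lamin A, and controls also carried Cre and 1 floxed copy. This Prx1-driven Cre acts in the early limb mesenchyme, so the sorted CD45- Ter119- CD31- Ai9+ cells can hold any skeletal lineage that descends from it. The study describes the 16-week cells as coming from pairs of mice, but each genotype has 1 library with no map from cells to mice. Its methods attach the cell numbers of these libraries to the opposite genotypes, and the genotypes here follow the sample labels. The series further holds 8-week libraries of Prx1Cre and OsxCre cells (the second Cre acts in osteoblast precursors and their offspring), and RNA-seq and ATAC-seq libraries at 20 weeks of gpSSPCs, which are CD73+ Ai9+ growth plate cells, and of pSSPCs, which are Sca1+ Ai9+ periosteal cells, each with 3 control and 3 CKO libraries. The genotype field reads PrxCre; Z24fl/fl for both arms at 20 weeks, where only the titles separate them, and it names Z24fl/fl for the 8-week libraries, which the methods describe without a Z24 allele.

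Cartilage is built by chondrocytes, which under the transcription factor SOX9 secrete a matrix of type II, IX and XI collagens around aggrecan. In the growth plate they pass from a resting zone through columns of dividing cells to enlarged hypertrophic cells, and in the joint they form a thin permanent layer with a lubricating surface. Cartilage has no blood vessels, and its cells live at low oxygen and draw on glycolysis.

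The serpin A1 genes, murine copies of the gene for alpha-1-antitrypsin, an inhibitor of neutrophil elastase, were among the genes that most set these cells apart, and 3 of their promoters are shown because they bear on the results below. Each line holds the 250 bases before the RefSeq start on GRCm38.p6, minus strand, of *Serpina1a* (chr12:103863620-103863869), *Serpina1b* (chr12:103738190-103738439) and *Serpina1d* (chr12:103773634-103773883). Capitals mark a 55-base run that the 3 share exactly.
Serpina1a: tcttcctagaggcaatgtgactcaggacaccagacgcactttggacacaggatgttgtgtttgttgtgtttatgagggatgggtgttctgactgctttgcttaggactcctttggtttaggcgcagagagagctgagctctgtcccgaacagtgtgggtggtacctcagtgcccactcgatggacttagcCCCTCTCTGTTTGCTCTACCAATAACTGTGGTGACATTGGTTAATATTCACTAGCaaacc
Serpina1b: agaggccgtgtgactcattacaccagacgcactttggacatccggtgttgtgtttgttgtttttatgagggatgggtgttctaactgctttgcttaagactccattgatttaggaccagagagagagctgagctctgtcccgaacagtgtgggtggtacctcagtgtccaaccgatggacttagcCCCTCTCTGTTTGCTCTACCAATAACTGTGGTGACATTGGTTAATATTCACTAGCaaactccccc
Serpina1d: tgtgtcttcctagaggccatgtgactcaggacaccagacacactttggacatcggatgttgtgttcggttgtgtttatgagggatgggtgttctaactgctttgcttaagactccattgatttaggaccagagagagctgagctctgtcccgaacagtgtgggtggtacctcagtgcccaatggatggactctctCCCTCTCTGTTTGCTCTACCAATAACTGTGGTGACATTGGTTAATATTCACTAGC
The run ended 6, 11 and 1 bases before the start of *Serpina1a*, *Serpina1b* and *Serpina1d*, and 5 of the 32851 promoter windows searched held it, those of *Serpina1a* to *Serpina1e*. Copies this alike can share reads, so the values of single serpin A1 genes are uncertain and their sum is given as well.

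Chondrocyte-like cells were 61 of 2068 control cells and 19 of 2362 CKO cells. The shares were 2.95% (95% interval, 2.264 to 3.773) and 0.804% (0.485 to 1.253). With 1 library per genotype there is no test of this or of any other difference between the genotypes in single cells, and all intervals (exact Poisson for levels, exact Clopper-Pearson for shares above 0, and an upper limit of 3 cells of the total for a share of 0) cover counting error only. The genotypes follow the sample labels here and below. By the same rule the 8-week libraries held 158 of 993 Prx1Cre cells (15.91%) and 75 of 782 OsxCre cells (9.591%), so both 16-week shares lay below both 8-week shares.

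The summed UMIs of the chondrocyte-like cells were 236576 in control and 79333 in CKO, where 1 UMI is worth 4.227 and 12.61 CPM, the unit that scales the UMIs of each summed library to the same total. The median cell had 2855 and 4433 UMIs, compared with 1406 and 1258 in the other cells of each library. Mitochondrial transcripts took 2.939% and 3.586% of the summed UMIs, compared with 2.961% and 3.11% in the other cells. Their share passed 10% in 5 of the 61 control cells and 3 of the 19 CKO cells. Between 0.5% and 1% lay 7 control and 5 CKO cells, left out by the rule, and 15 of 61 chondrocyte-like cells in control and 8 of 19 in CKO lay between 1% and 2%. The rule genes gave 1.04%, 1.09% and 1.12% of UMIs in the control cells just inside it and 0.923%, 0.874% and 0.859% in those just outside, and 1.09%, 1.24% and 1.34% against 0.871%, 0.676% and 0.589% in CKO. The CKO cells at 1.24% and 1.34% had no *Acan* or *Mia* UMI and 0 and 1 *Col2a1* UMI, whereas the control cell left out at 0.923% had 8 *Acan*, 11 *Col2a1* and 111 *Mia* UMIs. No rule gene had a UMI in 89.19% of the other control cells and 93.98% of the other CKO cells. The 16-week libraries shared 10 cell barcodes, none of them of a chondrocyte-like cell.

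The label was checked against cartilage genes outside the rule. *Acan*, which encodes aggrecan, had a UMI in 59 of 61 control cells and 17 of 19 CKO cells, compared with 0.747% and 0.341% of the other cells. The 2 CKO cells without it each had over 10% mitochondrial UMIs and over 5% from the osteoblast (OB) list, and 1 of the 2 such control cells did. *Sox9* stood at 968.0 CPM in control and 794.1 CPM in CKO, against 17.49 and 15.77 CPM in the other cells. Of the list of 13 chondrogenic transcription factors, *Sox9* and *Zbtb20* passed the filter on levels, and *Nkx3-2*, *Barx1* and *Scx* had no UMI. At least 2-fold above the other cells were 5 of the 13, and 3 were at least 2-fold below, compared with 8.34% and 20.4% of all genes. The lymphoid list had no UMI in either genotype, the myeloid list had 1 in each, and of the endothelial list *Pecam1* alone was found, with 3 and 4 UMIs. Of the list of periosteal mesenchymal stromal cells (PMSCs), *Clec3b*, *Pi16*, *Tnxb*, *Cd34* and *Dpt* were at 0 while the matrix gene *Dcn* was at 570.6 and 390.8 CPM, and the list summed to 625.6 and 453.8 CPM, compared with 2239 and 1106 CPM in the other cells. Of the tenocyte list, *Tnmd* and *Scx* were at 0 while *Fmod*, which is also on the list of other cartilage genes, was at 794.7 and 1122 CPM, and the list summed to 836.9 and 1160 CPM, compared with 44.18 and 51.11 CPM. These cells are therefore called chondrocyte-like below, with the OB transcripts given where they bear on a value.

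The rule genes, which are a description and not a result, summed to 33480 CPM in control and 34030 CPM in CKO, compared with 179.1 and 84.41 CPM in the other cells. *Col2a1*, the main fibrillar collagen of cartilage, had a control level of 14590 CPM (14100 to 15080) and a CKO level of 16160 CPM (15290 to 17070). *Cnmd*, which encodes the vessel-inhibiting chondromodulin, was at 7807 and 5660 CPM, and *Col11a2*, a chain of type XI collagen, at 1543 and 2395 CPM. Per cell the 7 genes spanned 1.04% to 11% of UMIs in control (median, 2.82%) and 1.09% to 8.26% in CKO (median, 2.18%).

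Outside the rule, 11 of the 20 genes that stood out most against the other cells were members of the list of other cartilage genes. Of 7782 genes with a mean of at least 10 CPM, 8.34% were at least 2-fold higher in the chondrocyte-like cells and 20.4% at most 0.5 times as high, and the 20 highest ratios ran from 40.39 to 296.2 after 10 CPM was added to each level. *Col9a3*, the third chain of type IX collagen, led with 4827 and 5345 CPM in control and CKO, compared with 10.08 and 3.505 CPM in the other cells. *Snorc* (3110079O15Rik in the files), a cartilage membrane proteoglycan, had 11970 and 11030 CPM, and *Mia*, a small secreted cartilage protein, had 12810 and 9113 CPM. *Chad* and *Comp*, which encode matrix proteins that bind collagen, stood at 10270 and 8294 CPM and at 5875 and 5660 CPM. *Ucma*, a secreted protein of upper growth plate cartilage, was at 1509 and 1450 CPM, 123.2-fold above the other cells. *Ppa1*, a pyrophosphatase, *Fxyd2*, a regulator of the sodium pump, and *Syt8*, a synaptotagmin, were also among the 20, as were *Scrg1*, *Epyc*, *Pcolce2*, *Chadl*, *Col11a1* and *Dhx58os*. The plot of levels shows that for each of these 20 genes and *Sox9* both genotypes lay far above the other cells and close to each other. Since the cells were chosen on cartilage genes, this contrast has no test.

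**Figure D1:**
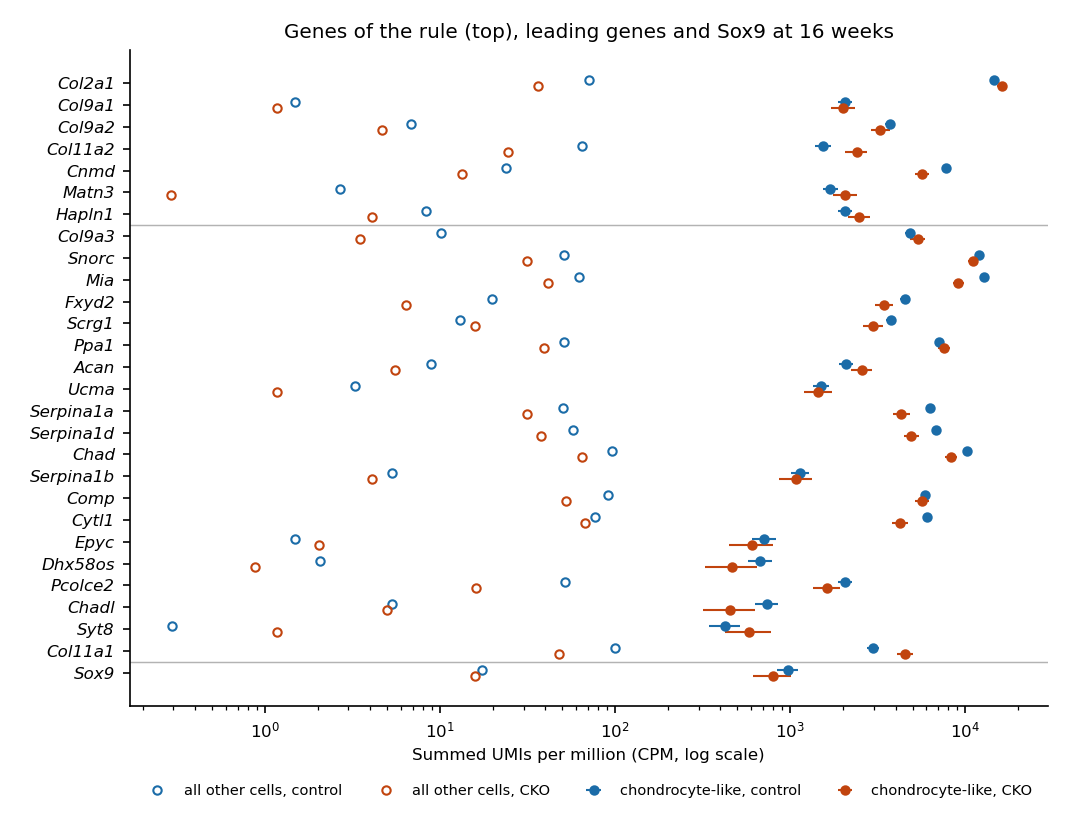
Summed UMIs in CPM (log axis) of the 7 rule genes, the 20 leading genes outside the rule and *Sox9* in chondrocyte-like cells (filled, with exact Poisson 95% intervals) and all other cells (open) of the control and CKO libraries, with *Snorc* standing for 3110079O15Rik. *Acan* is at 2088 and 2559 CPM in chondrocyte-like cells against 8.895 and 5.55 CPM in the others.

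Serpin A1 transcripts varied widely from cell to cell. *Serpina1d* reached 6772 CPM in the control library (6444 to 7112) and 4929 CPM in the CKO library (4452 to 5442), compared with 57.22 and 37.68 CPM in the other cells. *Serpina1a* was at 6328 and 4324 CPM and *Serpina1b* at 1146 and 1084 CPM. The UMIs of *Serpina1a* to *Serpina1e* took from 0 to 4.75% of a control cell (median, 1.07%) and from 0 to 3.49% of a CKO cell (median, 0.62%). They were at or above 1% in 33 control cells (54.1%) and 6 CKO cells (31.6%), and absent from 6 and 3 cells. In the 30 control cells with the lower rule share the median was 1.68%, and in the 31 with the higher share 0.834%, and the same medians in CKO were 1.27% over 9 cells and 0.484% over 10. Spearman's rho between the serpin and rule shares was -0.279 over the 61 control cells and -0.248 over the 19 CKO cells, which share a library and whose shares share a total, with the rule share cut off at 1% by the rule itself. *Cytl1*, a small secreted cytokine-like protein of cartilage, had rho of 0.477 and 0.817 with the serpin share over the same cells, but 0.134 over 158 Prx1Cre and -0.006 over 75 OsxCre cells at 8 weeks, where rho between the rule and serpin shares was -0.179 and -0.018. *Acan* had rho of 0.419 and 0.61 with the rule share in the 16-week cells. These values describe single cells of 1 library per genotype and not replicates.

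The same rule at 8 weeks gave a different picture for these genes. *Serpina1d* was at 643.5 CPM in the Prx1Cre library and 380.1 CPM in the OsxCre library, and *Serpina1a* at 826.2 and 266.1 CPM. The median serpin share of a cell was 0.0774% and 0, and 10 of 158 cells (6.33%) and 0 of 75, which allows a share of up to 4.0%, reached 1%. *Cytl1* was at 1135 and 790.6 CPM, below the 6083 and 4248 CPM of the 16-week libraries. In the other cells it went the other way, at 2099 and 528.8 CPM at 8 weeks and 76.79 and 67.18 CPM at 16 weeks, so at 8 weeks its ratio to the other cells was only 0.543 and 1.486. Of 710 genes with a mean of at least 200 CPM over the 4 libraries, 10 (1.41%) were more than 2-fold higher in both 16-week libraries than in both 8-week libraries and 14 (1.97%) more than 2-fold lower. Among the 10 were *Serpina1a*, *Serpina1b*, *Serpina1d*, *Cytl1*, *Ndufa4l2*, *Apoe* and *Cst3*, which encodes the protease inhibitor cystatin C (24080 and 19080 CPM, compared with 7712 and 8552 CPM). *Apoe*, *Cst3*, *Polr2l*, *Col10a1*, *Cdkn1c*, *Bc1* and the mitochondrial, ribosomal and predicted genes are named in this comparison after their values were seen. *Apoe* also stood higher in the other cells at 16 weeks, at 8021 and 8341 CPM compared with 5134 and 7252 CPM, whereas *Cst3* in the other cells lay between 6864 and 7761 CPM in all 4 libraries. The other 3 were *mt-Co2*, *mt-Nd2* and *Polr2l*, which stood as far apart in the other cells (*mt-Co2*, 2286 and 2170 CPM at 16 weeks, compared with 666.8 and 746.3 CPM). Among the 14 were *Col10a1*, the collagen of hypertrophic cartilage (160.6 and 0 CPM, compared with 1243 and 771.6 CPM), the cell cycle inhibitor *Cdkn1c* (295.9 and 151.3, compared with 1110 and 2030 CPM) and *Bc1*, a noncoding RNA that was also lower in the other cells, as were the ribosomal protein-like genes *Rpl10-ps3* (12.68 and 37.82 CPM, compared with 713.9 and 1057 CPM) and *Rps27rt* and the predicted genes *Gm2000* and *Gm11808*. The part of such differences between whole libraries in the age contrast was not tested. Of the 38 *Col10a1* UMIs in control, 34 came from 1 cell. Each age has its own libraries, so age and library cannot be told apart, and the 8-week labels name another genotype or Cre line than the 16-week control.

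**Figure D2:**
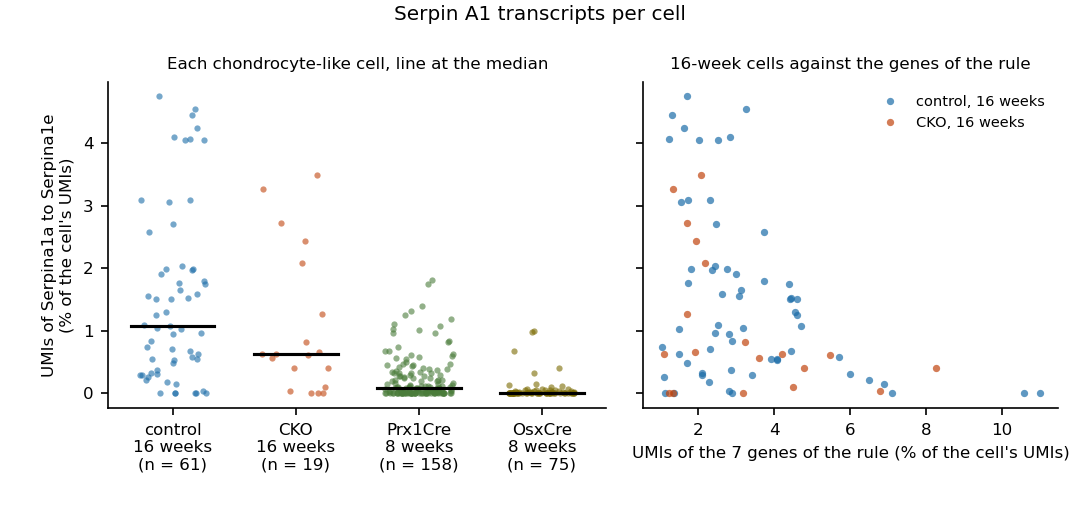
Share of a cell's UMIs from *Serpina1a* to *Serpina1e* in each chondrocyte-like cell of the 4 libraries (left, line at the median, sideways scatter only to separate the points) and against the share of the 7 rule genes in the 16-week cells (right). The medians are 1.07% in control and 0.62% in CKO at 16 weeks, and 0.0774% and 0 at 8 weeks.

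The lists for single cartilage zones were represented unevenly. *Prg4*, which encodes the joint lubricant lubricin, had 1 UMI in control and 0 in CKO, although 5.082% and 2.433% of the other cells had one, so *Cytl1* gave nearly all UMIs of the articular list. Of the 14 genes of that list, 1 was at least 2-fold above the other cells and 7 at least 2-fold below, compared with 8.34% and 20.4% of all genes. The list summed to 6231 CPM in control and 4651 CPM in CKO, compared with 5112 and 4566 CPM in the other cells. Of the resting zone list, *Ucma* and *Apoe* passed the filter on levels, while *Pthlh*, the resting zone signal, had no UMI and *Sfrp5* had 2 UMIs in 1 control cell. Of its 12 genes, 3 were at least 2-fold above the other cells and 5 at least 2-fold below, compared with 8.34% and 20.4% of all genes. The list summed to 2921 CPM in control and 2836 CPM in CKO, compared with 8859 and 9190 CPM in the other cells. *Apoe* was at 968.0 and 882.4 CPM, below the 8021 and 8341 CPM of the other cells. *Nt5e*, which encodes the CD73 used to sort gpSSPCs, had a level of 71.86 CPM in the control cells (41.86 to 115.1) and of 50.42 CPM in the CKO cells (13.74 to 129.1). Of the 14 genes of the prehypertrophic and hypertrophic list, 8 passed the filter. At least 2-fold above the other cells were 7, and 5 were at least 2-fold below them. Of all genes with a mean of at least 10 CPM, 8.34% and 20.4% were. Its sum was 8171 CPM in control and 6189 CPM in CKO, compared with 21540 and 19430 CPM in the other cells, where *Spp1* and *Ibsp*, which osteoblasts also make, were higher. *Pth1r*, the receptor for parathyroid hormone-related peptide of prehypertrophic cells, had a UMI in 91.8% of control cells and in every CKO cell, at 2384 and 1765 CPM. *Panx3*, a channel protein of prehypertrophic cells, was at 329.7 and 289.9 CPM, with a UMI in 45.9% and 42.1% of cells, and *Mef2c*, a transcription factor of hypertrophy, at 405.8 and 327.7 CPM. *Runx3*, another such factor, was at 118.4 and 289.9 CPM, with 26.1% of its CKO UMIs in 1 cell. *Ihh*, the signal of prehypertrophic cells, had 13 UMIs in 4 control cells and 42 UMIs in a single CKO cell. *Ibsp*, a bone matrix protein that hypertrophic cells also make, was at 3475 and 1664 CPM, with 66.7% of its control UMIs in 1 cell. The cell cycle list summed to 1065 and 642.9 CPM, compared with 788.6 and 728.5 CPM in the other cells, no member passed the filter, and the 11 control UMIs of *Top2a* all came from 1 cell. *Prg4*, *Pthlh*, *Sfrp5*, *Ihh* and *Top2a* were chosen after their values were seen.

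*Zmpste24* had 6 UMIs in 6 control cells (25.36 CPM, 9.307 to 55.2) and 0 in CKO, where 0 of 19 cells allows a share of cells with a UMI of up to 15.8% by the limit of 3 cells. Both values lie near the floor of 3 counts, and no fold is given. In the other cells it was at 18.97 CPM in control and 3.213 CPM in CKO, with a UMI in 3.089% and 0.427% of them, the direction the labels give. The deletion removes an internal exon and the tags come from the 3′ end of the transcript, so these counts do not themselves check it.

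Between the genotypes no rule gene and no gene of the other cartilage list differed by more than 2-fold, while 30 other genes did. Of 687 genes with a mean of at least 200 CPM, 30 (4.37%) differed by more than 2-fold after 20 CPM was added, 20 higher (2.91%) and 10 lower (1.46%) in CKO, and the median log2 ratio of all was 0.03. In the other cells 13 of 748 genes (1.74%) did, where far more UMIs stand behind each value. In 17 of the 30, 1 cell held over 25% of the UMIs, and such genes are left out of the 12 highest and 12 lowest, while those named as members of a list are given with the share of that cell. Of the other cartilage list, 17 members passed the filter and none differed by more than 2-fold. In CKO 5 were higher and 12 lower, where 47.7% of all genes were lower, with a median log2 ratio of -0.06. With the rule share set to at least 2%, 8 were higher and 9 lower. Its sum was 62890 CPM in control and 57440 CPM in CKO.

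Among the 12 genes highest in CKO against control, *Col12a1*, a collagen that decorates fibrils, was at 257.8 CPM in control and 617.6 CPM in CKO (log2 ratio, 1.2; 0.69 to 1.83). Here and below, intervals of log2 ratios come from the UMIs without the added 20 CPM, so they are not centred on the ratios. *Col6a2*, a chain of the pericellular type VI collagen, was at 198.7 and 466.4 CPM, and *Hspg2*, which encodes the pericellular proteoglycan perlecan, at 177.5 and 365.5 CPM. *Ndufa4l2*, a mitochondrial gene induced by low oxygen, was at 587.5 CPM (493.9 to 693.7) and 1248 CPM (1014 to 1519), a log2 ratio of 1.06 (0.70 to 1.47). It had a UMI in 36.07% of control cells and 84.21% of CKO cells, and in 24.53% and 57.89% once each cell was thinned to 1000 UMIs, which left out 8 control cells and no CKO cell. *Higd1a*, also induced by low oxygen, was at 693.2 and 1349 CPM. *Rbm3*, a cold-induced RNA-binding protein, was at 177.5 and 403.4 CPM, and *Thbs3*, a thrombospondin of cartilage and bone, at 181.8 and 352.9 CPM. *Tceal8*, *Usp50*, *Lsp1*, *Mrpl52* and *S100a11* completed the 12 highest, of which the first 6 (*Col12a1*, *Col6a2*, *Rbm3*, *Ndufa4l2*, *Tceal8* and *Usp50*) had log2 ratios from 1.00 to 1.2. *Ndufa4l2* alone of these 6 stayed at or past 2-fold in all 13 alternative settings.

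The rest of the glycolysis and hypoxia list lay the same way. All 11 members that passed the filter were higher in CKO, where 52.3% of all genes were, with a median log2 ratio of 0.53 in chondrocyte-like cells and -0.12 for the same genes in the other cells. *Ldha*, which makes lactate, was at 1264 CPM in control and 1878 CPM in CKO (log2 ratio, 0.56; 0.28 to 0.86), and *Gapdh* at 443.8 and 731.1 CPM. *Mif*, a cytokine gene induced by low oxygen, was at 621.4 and 970.6 CPM, and *Aldoa*, *Pgk1*, *Pgam1*, *Tpi1*, *Pkm*, *Eno1* and *Fam162a* had log2 ratios between 0.10 and 0.63. Only *Ndufa4l2* passed 2-fold. The sum of the list was 7490 CPM in control and 10510 CPM in CKO, and 2304 and 2113 CPM in the other cells. Of its 11 members, 10 or 11 were higher in CKO in each alternative setting tried for the list. Depth per cell also differed between the genotypes, as given above, and its part in this difference was not tested.

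Of the list for collagen folding and stress of the endoplasmic reticulum, 8 of the 9 members that passed the filter were higher in CKO, where 52.3% of all genes were, with a median log2 ratio of 0.39. The sum of the list was close in the genotypes, at 11100 CPM in control and 11660 CPM in CKO, and at 7577 and 7081 CPM in the other cells. *Hspa5*, the main chaperone there, was at 748.2 CPM in control and 1235 CPM in CKO, and *Hsp90b1*, *Calr*, *Pdia3*, *Pdia6*, *P4hb*, *Fkbp10* and *Manf* had log2 ratios between 0.27 and 0.64. *Serpinh1*, the collagen chaperone, was the exception at 5875 and 4664 CPM.

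Several of the genes lower in CKO had few UMIs there. *Ppp1r1b*, which encodes an inhibitor of protein phosphatase 1, was at 321.2 CPM in control and 88.24 CPM in CKO, on 76 and 7 UMIs (log2 ratio, -1.66; -3.23 to -0.75). *Serpina1c* was at 338.2 and 113.4 CPM on 80 and 9 UMIs, and *Prss50*, a protease gene, at 515.7 and 201.7 CPM. *Map1lc3a*, an autophagy gene, was at 308.6 and 113.4 CPM, and *Id1*, a target of bone morphogenetic protein signalling, at 638.3 and 289.9 CPM. *Ppp1r1b*, *Serpina1c*, *Map1lc3a* and *Prss50* stayed past 2-fold in all 13 alternative settings. *Jund*, a subunit of the AP-1 transcription factor, was at 2562 CPM in control and 1273 CPM in CKO, just short of 2-fold, while in the other cells it was at 633.6 and 1200 CPM. *Cnn3*, *Rasd1*, *Timp2*, *Fscn1*, *Cdkn1c* and *Alpl* completed the 12 lowest. The 4 serpin A1 genes that passed the filter were all lower in CKO, where 47.7% of all genes were, with a median log2 ratio of -0.50 and a sum of 14610 CPM in control and 10470 CPM in CKO. *Serpina1b*, with a log2 ratio of only -0.08 and 38.7% of its control UMIs in 1 cell, turned to 0.76 when the rule share was set to at least 2%, to 0.11 with each cell weighted equally and to 0.02 without the cells rich in OB or BMSC transcripts described below, while the other 3 stayed lower.

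**Figure D3:**
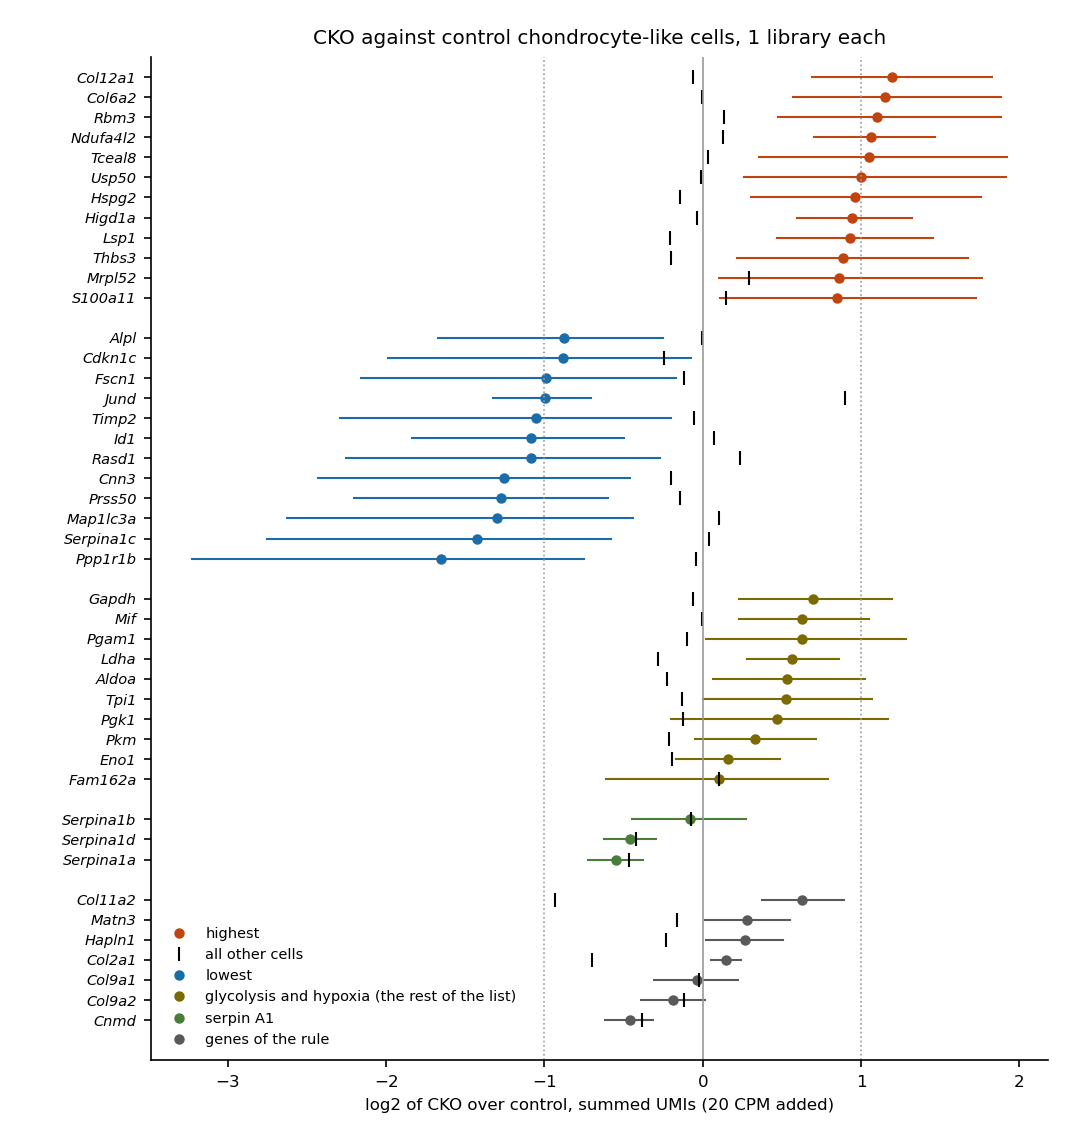
Log2 ratio of CKO over control summed UMIs (20 CPM added) in chondrocyte-like cells (points, with exact conditional binomial 95% intervals) and in all other cells (ticks) for the 12 highest and 12 lowest genes without a dominant cell, the rest of the glycolysis and hypoxia list, 3 serpin A1 genes and the rule genes, with dotted lines at 2-fold. The intervals come from the UMIs without the added 20 CPM. *Ndufa4l2* is at 1.06, the other glycolysis and hypoxia genes lie between 0.10 and 0.70, and *Ppp1r1b* is lowest at -1.66.

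The OB list summed to 8471 CPM in control and 19030 CPM in CKO, with *Bglap*, which encodes osteocalcin, its most abundant gene in CKO at 9126 CPM, 38.1% of it in 1 cell. Over 5% of UMIs came from this list in 3 control and 5 CKO cells. *Col1a1* had 416 UMIs in 3 CKO cells, 277 of them in 1 cell, and 38 UMIs in 7 control cells. In the other cells the list went the other way, from 18320 CPM in control to 11600 CPM in CKO. The bone marrow stromal cell (BMSC) list summed to 1095 and 3567 CPM, led by *Cxcl12* at 558.0 and 1840 CPM, with 50.7% of its CKO UMIs in 1 cell, and over 1% of UMIs came from it in no control cell and 2 CKO cells. Without the cells over either limit the median log2 ratio of the glycolysis and hypoxia list was 0.74 and that of the serpin A1 list -0.47. The OB and BMSC lists themselves were then at -0.48 and -0.62, a shift that the choice of the cells left out fixes in advance. These limits were set after the values were seen. Whether these few cells are doublets or took up free RNA was not tested.

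The immediate early list, which tissue digestion is known to induce, summed to 23850 CPM in control and 18430 CPM in CKO, led by *Junb* at 6996 and 4588 CPM. In the other cells it stood at 3478 and 7136 CPM. Its part in the differences between the genotypes was not tested. Of the interferon and antigen presentation list, *B2m*, *H2-K1* and *H2-D1* passed the filter. All were higher in CKO, where 52.3% of all genes were, with a median log2 ratio of 0.70. However, 1 CKO cell held 41.1% of the *H2-D1* UMIs there. Without the cells over the OB or BMSC limit the median was -0.72, with 1 member higher and 2 lower. The list summed to 959.5 and 1866 CPM compared with 20850 and 20880 CPM in the other cells. Of the p53 and senescence list, the growth arrest genes *Btg2* and *Cdkn1a* passed, with log2 ratios of 0.24 (-0.13 to 0.60) and 0.36 (-0.46 to 1.21), and 1 CKO cell held 33.3% and 42.1% of their UMIs there. No member of the lamina list or of the FGF and WNT list passed the filter. *Lmna*, named after its values were seen, was at 109.9 CPM in control and 138.7 CPM in CKO.

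RNA-seq of sorted cells at 20 weeks gave a replicated measure of the same genes in samples that the cell rule did not use. Replicates 2 and 3 of each group differed by about sampling noise and were counted as 1 sample, which left 2 samples per group with total counts from 1333260 to 5315709 per library. In bulk samples, fewer cells of a type and less RNA per cell cannot be told apart. With edgeR's quasi-likelihood test, no gene of 13173 had an adjusted p under 0.05 between control gpSSPCs and control pSSPCs (background, 0.0%), while 815 had an unadjusted p under 0.05 and DESeq2 called 241. On simulated data of the same spread the test recovered 3 of 100 genes changed 4-fold and 15 of 100 changed 8-fold. With the replicate number as a block, 476 genes (3.61%) were called, 164 higher (1.24%) and 312 lower (2.37%) in gpSSPCs.

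The rule genes and the leading genes all had higher fitted levels in gpSSPCs. Those cells were taken from growth plate cartilage and pSSPCs from periosteum. In this contrast the tissue taken and the type of cell sorted cannot be told apart. *Acan* was at 2925 and 4368 CPM in the control gpSSPC samples and at 496.1 and 400.6 CPM in the control pSSPC samples, a log2 difference of 3.02 ± 0.40 (SE; edgeR, adjusted p = 0.168, and 1.436e-10 with the block). *Col2a1* was at 24810 and 15350 CPM compared with 4470 and 2115 CPM. *Sox9* was at 1711 and 1024 CPM compared with 691.9 and 280.1 CPM. The groups did not overlap in these 3 genes, but with 2 samples per group this is a weak measure. Its share over all genes was not counted. All 7 rule genes and all 20 leading genes had a positive log2 difference, where 48.9% of all genes did, and 7 and 19 of them were at least 1, where 19.2% of all genes were. The medians were 2.24 and 1.83, compared with -0.03 over all genes. None passed the test without the block (lowest adjusted p, 0.168) and all 27 were called higher with it. Of the list of other cartilage genes, 21 of 22 members had a positive difference, none called without the block and 16 called higher with it. The list of prehypertrophic and hypertrophic genes had 13 of 14 members with a positive difference and a median of 2.11, none called without the block and 10 called higher with it. *Cytl1* was at 3307 and 23370 CPM compared with 1877 and 6926 CPM, so its groups overlapped although gpSSPCs were higher within both replicate numbers. *Nt5e* was used to sort gpSSPCs, and its higher level there, 243.9 and 197.6 CPM compared with 54.3 and 54.39 CPM, is no finding.

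Between CKO and control gpSSPCs no gene passed the test (edgeR; 29 had an unadjusted p under 0.05, and DESeq2 called 0), and 8 (0.0607%) did with the block, 3 higher (0.0228%) and 5 lower (0.038%) in CKO. This contrast shares the control gpSSPCs with the one above. The rule genes were all lower in CKO, with a median log2 difference of -1.13, compared with -0.004 over all genes, and with the block *Col2a1* (-1.21), *Col9a1* (-1.37) and *Col11a2* (-1.17) were called. Other cartilage genes went both ways. Of the 20 leading genes 12 had a positive and 8 a negative difference, with a median of 0.06. Of the list of other cartilage genes 8 had a positive and 14 a negative difference, with a median of -0.06 and none called with the block. No test compared these sets with the rule genes. *Col2a1* was at 11320 and 6295 CPM in CKO, below the 24810 and 15350 CPM of control. *Col10a1* was at 241.8 and 269.7 CPM in CKO and 1018 and 666.6 CPM in control (block, -1.65, edgeR adjusted p = 0.0129). *Serpina1d* was at 5156 and 5510 CPM in CKO and 1109 and 2033 CPM in control (block, 1.79, edgeR adjusted p = 4.208e-05), and *Serpina1a* at 1683 and 3790 CPM compared with 586.8 and 1569 CPM (block, 1.38, edgeR adjusted p = 0.00439). All 6 members of the serpin list, *Serpina1a* to *Serpina1e* and *Serpina3n*, were higher in CKO, where 49.7% of all genes were, with a median of 1.55, and 4 were at least 1, where 9.31% of all genes were. None was called without the block and only *Serpina1a* and *Serpina1d* with it. In the 16-week cells the 4 members that passed the filter were lower in CKO. The ages, the sorts and the numbers of samples differ. The remaining genes called were *Cst3* (0.79) and *R3hdml* (-2.47), where *Cst3* was at 29820 and 33530 CPM in CKO and 14160 and 23080 CPM in control. Over the 13173 genes, the effect of genotype differed between gpSSPCs and pSSPCs in no gene without the block. With the block it did in 2 (0.0152%), both higher in CKO gpSSPCs (0.0152%), *Cst3* and *Serpina1d*. With all genes of at least 1 count and no block, 2 genes were called, both higher. *Col10a1*, *Cst3* and *R3hdml* are named after their values were seen.

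Of the genes apart in the 16-week cells, none of the 12 highest and none of the 12 lowest was called in CKO gpSSPCs, with or without the block. With the block 0.0607% of all genes were called. Of the 12 highest, 5 had a positive and 7 a negative difference, and of the 12 lowest also 5 and 7. *Ndufa4l2* was at 414.7 and 597.5 CPM in CKO and 196.4 and 292.2 CPM in control (log2 difference, 1.05 ± 0.58; edgeR, adjusted p = 1.0). *Col12a1* was at 956.8 and 202.6 CPM in CKO and 1411 and 382.1 CPM in control, and *Ppp1r1b* at 335.6 and 281.5 CPM compared with 244.3 and 158.4 CPM, both opposite to the cells. Of the glycolysis and hypoxia list, 23 of 24 members had a positive difference, where 49.7% of all genes did, with a median of 0.55, and none was called with or without the block. *Zmpste24* was at 4.617 and 15.66 CPM in control gpSSPCs and 1.138 and 7.858 CPM in CKO gpSSPCs, so its groups overlapped although CKO was lower within both replicate numbers.

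**Figure D4:**
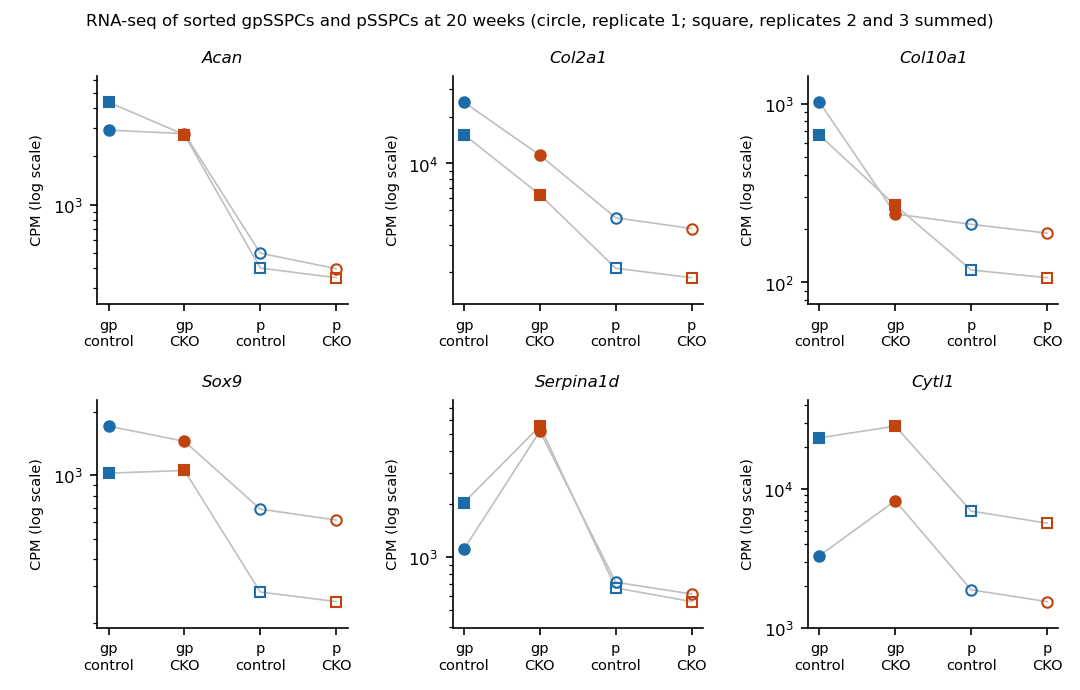
RNA-seq CPM (log axis) of *Acan*, *Col2a1*, *Col10a1*, *Sox9*, *Serpina1d* and *Cytl1* in gpSSPCs and pSSPCs of control and CKO mice at 20 weeks, with circles for replicate 1, squares for replicates 2 and 3 summed and lines joining samples of 1 number. *Acan* lies between 2734 and 4368 CPM in the 4 gpSSPC samples and between 348.8 and 496.1 CPM in the 4 pSSPC samples.

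ATAC-seq peak lists of the sorted cells bore on the promoters of the same genes, again with gpSSPCs and pSSPCs taken from different tissues. Of the 27 rule and leading genes, 20 had a RefSeq promoter window, and a peak overlapped it in all 6 gpSSPC libraries for 14 of them (70.0%), compared with 42.0% of 27025 genes. In all 6 pSSPC libraries this held for 4 (20.0%), compared with 41.2% of all genes. A peak in all gpSSPC libraries and in no pSSPC library was found for 7 (35.0%), compared with 0.81% of all genes: *Col9a2*, *Mia*, *Ucma*, *Serpina1a*, *Chad*, *Cytl1* and *Chadl*. Among peaks with a −log10 q of at least 5 the count was also 7, compared with 0.821% of all genes, but *Serpina1a*, with 2 of 3 CKO gpSSPC libraries, left the set and *Acan* entered it, and 4 had a peak in all pSSPC libraries, compared with 40.3% of all genes. The *Serpina1b* and *Serpina1d* windows printed above had a peak in 5 gpSSPC libraries, all 3 of control and 2 of CKO, and in no pSSPC library. *Matn3*, *Ppa1*, *Pcolce2* and *Col11a1* had a peak in all 12 libraries. The core letters of SOX binding, ACAAAG or ACAATG on either strand, were in 5 of the 24 windows of these genes (20.8%), compared with 25.2% of all windows, and in none of the 3 printed ones. The windows and letters were chosen after the expression values were seen. Peaks were called in each library alone, and the lists held 68961 to 98549 peaks in gpSSPCs and 59209 to 101606 in pSSPCs.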

How the data were processed

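Per the labels, sorted cells were profiled by 10x 3′ scRNA-seq at 8 and 16 weeks and by Smart-seq2 RNA-seq and ATAC-seq at 20 weeks. The authors made the deposited counts with Cell Ranger on mm10 (UMI counts per gene and cell) and with STAR and HTSeq (counts per gene), and the deposited peak lists, whose −log10 q values were used, with MACS2 2.2.7.1 in each library alone, without a control.

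Cells with at least 200 genes were kept, UMIs of the chondrocyte-like and of the other cells were summed in each library, and CPM was set over the summed total. No doublet caller was run. To set genotypes side by side, 20 CPM was added and genes needed a mean of 200 CPM, and against other cells 10 CPM was added. Intervals of log2 ratios between genotypes (exact conditional binomial) were computed from UMIs without the added CPM. With 1 library per group no test was made. Named genes were the 7 rule genes and the 20 highest ratios to other cells with a UMI in at least 25% of the cells of each library. Added to these were the 12 highest and 12 lowest genotype ratios without a cell holding over 25% of the UMIs. List members of at least 200 CPM, *Zmpste24*, *Nt5e*, *Acan* and *Sox9* were named too. Any other gene was named after its values were seen, including list members below 200 CPM such as *Pecam1*, *Clec3b* and *Tnmd*. The members, the 34 lists and the alternatives were chosen with earlier results of these data known.

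RNA-seq counts of replicates 2 and 3, which differed by little more or less than sampling allows (ratio of chi-square to degrees of freedom, 0.82 to 0.98, compared with 10.147 to 13.079 against replicate 1), were summed. edgeR 4.0.16 (quasi-likelihood, TMM, filterByExpr) was fitted to 8 samples in 4 groups with 4 residual degrees of freedom, with Benjamini-Hochberg adjustment over 13173 genes and a threshold of 0.05, and was tested on simulated data. DESeq2 1.42.0 was an alternative. Samples of the same replicate number deviated together between groups (correlation 0.467 to 0.594 over 8422 genes) and were taken as paired, a point settled after counts of calls with the block had been seen. Since replicates 2 and 3 of a group were nearly alike, these correlations mainly hold the difference of replicate 1 from the others. Nothing says that the numbers came from separate mice, so p-values measure the spread between these samples. Promoters were 250 bases before each RefSeq start, and 1 base of overlap counted. Python 3.11.15, numpy 2.4.6, pandas 2.3.3, scipy 1.17.1 and R 4.3.3 were used.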

Additional observations from a re-analysis of the deposited data

Results flagged for a closer look

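The log2 ratio of CKO over control of the summed immediate early list was 1.04 in the other cells but -0.37 among chondrocyte-like cells, opposite in direction. That of the OB list was -0.66 in the other cells but 1.17 among chondrocyte-like cells, and 1 CKO cell held 38.1% of the *Bglap* UMIs there. Neither difference was tested, since each genotype has 1 library.

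In the RNA-seq with the replicate block, the effect of CKO in gpSSPCs exceeded that in pSSPCs by 2.02 on the log2 scale for *Serpina1d* (edgeR, adjusted p = 0.00357) and by 1.2 for *Cst3* (edgeR, adjusted p = 0.0188). Both CKO gpSSPC samples lay above both control gpSSPC samples for each gene, a weak measure with 2 samples per group. Without the block neither passed the test over the 13173 genes of the main filter. With all genes of at least 1 count and no block, 2 genes were called for this difference.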

How the results depend on the processing

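The CKO share lay below the control share under every alternative tried. With the rule genes at 2% or more of UMIs, the shares were 2.22% in control and 0.466% in CKO and 55 genes differed by more than 2-fold between the genotypes. That count was 95 with a mean of at least 100 CPM and 10 with at least 500 CPM, and from 24 to 44 otherwise. Of the 20 leading genes, 11 and 12 were again among the 20 highest in the Prx1Cre and OsxCre libraries at 8 weeks. The cause of these shifts was not tested.

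With the replicate block, 476 genes differed between control gpSSPCs and pSSPCs and 8 between CKO and control gpSSPCs. The block takes same-numbered samples as paired, which no label states and which was settled after counts of calls had been seen. With the block and 3 libraries per group, added after seeing the data, the counts were 2074 and 20, but replicates 2 and 3 are then counted as separate samples. The first count was 559 with 3 libraries and no block, 241 with DESeq2 and 89 with all genes of at least 1 count, and the second was 0 in each. Leaving out each sample in turn gave 0 to 0 genes in both comparisons. The gpSSPC over pSSPC difference of *Cytl1* ranged from -0.37 without control gpSSPC replicate 2 to 2.83 without control pSSPC replicate 2. That of *Mia* ranged from 0.65 to 1.95 over the alternatives. The log2 difference of CKO over control gpSSPCs ranged from 0.58 to 2.26 for *Serpina1a* and from 1.37 to 2.29 for *Serpina1d*. For *Col2a1* it ranged from -1.64 to -0.83. The alternative with PMSC-like cells left out was not run, since none of the chondrocyte-like cells met that gate.

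The 19 CKO cells and 79333 UMIs limit what can be seen there: 3 counts amount to 37.82 CPM, and a gene at the 200 CPM filter rests on few UMIs.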

Other observations

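*Bc1*, a neuronal noncoding RNA, was at 143.7 and 88.24 CPM in control and CKO chondrocyte-like cells at 16 weeks and at 2307 and 7207 CPM in those of the 8-week Prx1Cre and OsxCre libraries, and at 33.5, 32.42, 550.1 and 476.1 CPM in the other cells of the same 4 libraries. *Mfge8*, which encodes a secreted lipid-binding protein, was at 832.7 and 768.9 CPM at 16 weeks and at 2140 and 2197 CPM at 8 weeks. Both genes were chosen after their values were seen.

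The list of integrins and mechanosensing summed to 4126 CPM in control and 5067 CPM in CKO chondrocyte-like cells, with *Cyr61*, a matrix-associated signalling protein, at 1835 and 1815 CPM and *Fn1*, which encodes fibronectin, at 1471 and 2319 CPM, where 1 CKO cell held 34.2% of the *Fn1* UMIs. The list of hedgehog and PTHrP signalling summed to 2887 and 2723 CPM, that of TGF-beta and BMP signalling to 2684 and 2206 CPM, and that of chondrogenic transcription factors to 2067 and 1790 CPM.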
